A study of Mus musculus with 12 samples.

Results

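Gene expression in the posterior part of the mouse gastrula was compared between embryos that lost Lhx1 in the epiblast and control embryos. The comparison used 6 of the 12 bead arrays of the study, namely the 3 labelled posterior Lhx1epiCKO against the 3 labelled posterior control, and the other 6 arrays hold the anterior parts of the same genotypes. Lhx1epiCKO embryos carried the genotype Lhx1-/flox; Meox2+/Cre, and control embryos carried Lhx1+/flox; Meox2+/Cre. Both genotypes therefore had a conditional Lhx1 allele and Cre from the Meox2 locus, which is active in the epiblast, and they differed in whether the second Lhx1 allele was null or wild type. Controls accordingly keep a single working copy of Lhx1 where Cre has acted, and tissue outside the epiblast carries the null allele in Lhx1epiCKO embryos only. Embryos were taken at E7.75, between the early bud and early head-fold stages. Each array held RNA from a pool of 5 parts, so the spread between the arrays of a group is the spread between pools. The tissue field of every sample, posterior ones included, reads embryonic head, while the region field separates posterior from anterior. Sexes of the embryos are not given in the labels.

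LHX1 is a LIM-homeodomain transcription factor made in the primitive streak and its derivatives, among them the node and the anterior mesendoderm that lies under the future head. The posterior part of an embryo at this stage holds the primitive streak, which gives rise to mesoderm and lies beside the precursors of the allantois and of the first blood cells. Those first red cells, the primitive erythroid lineage, use embryonic globins such as Hbb-bh1 and arise in the blood islands of the yolk sac. In bulk tissue of this kind, fewer cells of a type and less RNA per cell cannot be told apart.

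The promoters of 4 genes whose values are described below show which binding letters lie near their starts. They are the 250 bases before the most upstream RefSeq start of each gene (build GRCm38.p6), with capitals marking TAATTA, a core bound by LIM-homeodomain proteins, in Otx2, and GATAA or its reverse complement TTATC, the core bound by GATA factors, in the erythroid genes.
Otx2, chr14:48667645-48667894, minus strand: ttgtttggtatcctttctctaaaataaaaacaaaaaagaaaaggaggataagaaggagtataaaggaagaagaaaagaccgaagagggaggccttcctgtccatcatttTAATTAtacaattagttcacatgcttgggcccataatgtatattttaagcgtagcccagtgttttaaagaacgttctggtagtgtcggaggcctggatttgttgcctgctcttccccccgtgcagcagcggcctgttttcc
Alas2, chrX:150547167-150547416, plus strand: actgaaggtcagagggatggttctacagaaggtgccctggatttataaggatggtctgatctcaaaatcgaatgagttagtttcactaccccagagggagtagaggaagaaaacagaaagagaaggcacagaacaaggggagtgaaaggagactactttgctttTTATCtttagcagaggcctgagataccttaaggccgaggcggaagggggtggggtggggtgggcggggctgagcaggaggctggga
Klf1, chr8:84901732-84901981, plus strand: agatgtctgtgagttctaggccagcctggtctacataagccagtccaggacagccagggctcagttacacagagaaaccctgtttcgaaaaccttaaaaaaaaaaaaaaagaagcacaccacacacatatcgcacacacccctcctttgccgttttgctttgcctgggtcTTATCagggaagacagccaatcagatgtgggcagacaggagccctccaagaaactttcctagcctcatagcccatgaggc
Gfi1b, chr2:28621983-28622232, minus strand: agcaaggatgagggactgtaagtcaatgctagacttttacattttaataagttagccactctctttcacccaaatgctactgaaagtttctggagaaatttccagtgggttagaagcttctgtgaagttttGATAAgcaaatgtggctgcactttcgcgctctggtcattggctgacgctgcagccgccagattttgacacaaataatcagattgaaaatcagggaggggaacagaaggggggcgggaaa
TAATTA reads the same on both strands and stood in 4.84% of the 32851 promoter windows of this length, while the Otx2 window held 1 and the window of Lhx1 itself (chr11:84525535-84525784, minus strand) held 0. GATAA on either strand stood in 22.6% of all windows. Of the 8 primitive erythroid genes that had an entry, 5 had it in any of their windows, a share per gene that cannot be set against the share per window. The erythroid windows printed each hold a match, while the window of Blvrb, also described below, held 0. A match describes these letters and shows no binding. Entries for Hbb-bh1, Nfe2 and Sfrp1 were not used here.

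Of the 6 posterior arrays, 2 stood apart and bear on many of the values below. On posterior Lhx1epiCKO replicate 3, 777 of the 14377 probes kept differed by over 1 log2 unit from its group's remaining arrays, taken as their mean, 137 higher and 640 lower. Only 12 of these 640 low probes were not detected on it. The other posterior Lhx1epiCKO arrays had 257 and 279 such probes, the posterior control arrays 7, 35 and 16, and the anterior arrays between 0 and 10. The counts of Lhx1epiCKO replicates 1 and 2 are set against a mean that includes replicate 3. Its correlation with that mean was 0.942 across probes, against 0.977 and 0.975 for Lhx1epiCKO replicates 1 and 2 and 0.989 to 0.991 for the posterior controls. The median SD of a probe over the 3 arrays was 0.224 in posterior Lhx1epiCKO and 0.15 in posterior control, and 9.15% of probes had an SD over 0.5 in posterior Lhx1epiCKO, against 0.765% in posterior control.

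**Figure D1:**
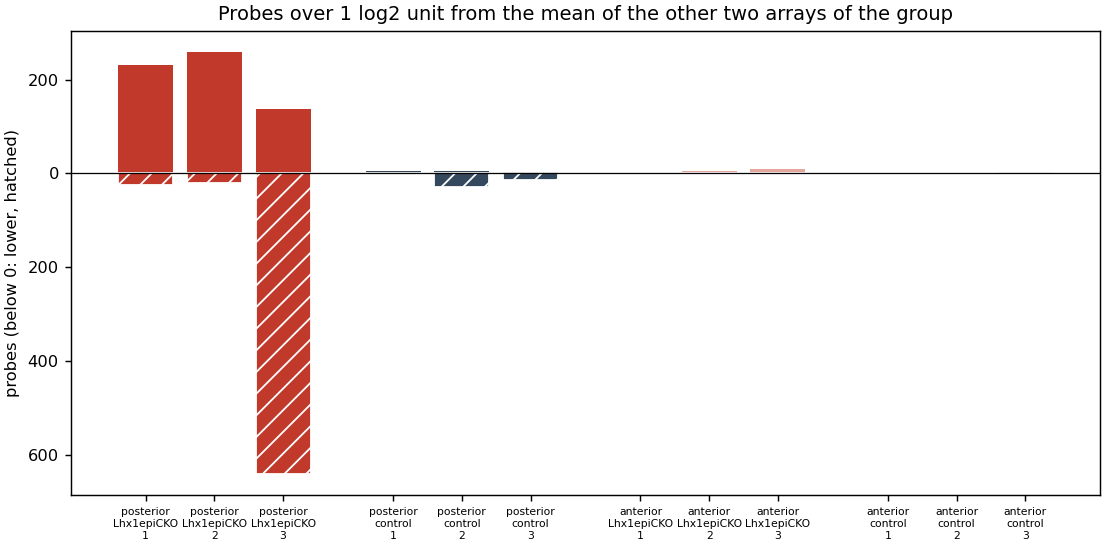
Each bar counts the probes that differed by over 1 log2 unit from the mean of the remaining arrays in the same group, with higher probes above 0 and lower probes hatched below it. The bar of 640 lower probes on posterior Lhx1epiCKO replicate 3 is the tallest, and the anterior arrays have at most 10 probes each.

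The low readings of that array were seldom repeated by another probe of the same gene. Of its low probes, 632 had a gene name, and 330 of these had another kept probe for the same gene. In 43 of these 330 another probe was also more than 1 log2 unit lower. The median deviation was -1.56 for the low probes and 0.08 for the other probes of their genes. The 5 lowest named probes belonged to Selenoh (6.21), Apoa1 (7.20), Adk (6.69), Aprt (7.89) and Cdc5l (6.96). Ccnd1, a cyclin of G1 phase, shows the pattern. Its brightest probe read 12.46, 12.03 and 9.85 in Lhx1epiCKO, against 12.46, 12.60 and 12.44 in control, while a second probe read 12.18, 11.75 and 11.77 in Lhx1epiCKO, against 11.93, 12.01 and 11.84 in control. The second probe does not repeat the low value of replicate 3.

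The array labelled posterior control replicate 2 differed in fewer genes. Lhx1 and Hbb-bh1 read there as they did on the Lhx1epiCKO arrays, as the next paragraphs give. Its 5 highest probes against the other controls were those of Hbb-bh1 (10.10), Fgfbp3 (8.49), the caudal homeobox gene Cdx1 (11.78), Arg1 (10.06) and the T-box gene Tbx4 (9.76). The other kept probe of Cdx1 disagreed, at 10.22, 9.98 and 10.14 in posterior control, where replicate 2 was the lowest. Xist, the RNA that coats the inactive X chromosome of female cells, was low on posterior control replicate 2. Its brightest probe read 8.24, 6.71 and 9.06 in posterior Lhx1epiCKO, against 10.08, 7.72 and 9.83 in posterior control. The other 3 Xist probes had their lowest control value on the same array, at 7.07, 7.12 and 6.91. In the anterior parts that brightest probe read 8.39, 6.57 and 8.65 in Lhx1epiCKO, against 9.90, 10.47 and 10.28 in control. The anterior control pool numbered 2 was thus the highest of its group for Xist and the posterior control pool numbered 2 the lowest. In Lhx1epiCKO, number 2 was the lowest in both regions. Eif2s3y, a Y-linked gene, read 8.60, 8.72 and 8.72 in posterior Lhx1epiCKO, against 8.33, 8.93 and 7.91 in posterior control, and 9.24, 8.94 and 9.09 in anterior Lhx1epiCKO, against 8.68, 8.00 and 8.61 in anterior control. Posterior control replicate 2 was the highest of the posterior arrays for it, and anterior control replicate 2 the lowest of the anterior arrays. Whether equal numbers mark the same embryos is not stated in the labels. The part of embryo sex, stage or pool identity in the results below was not tested.

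Lhx1, the targeted gene, was measured by a single probe, on chromosome 11. It was above background on 2 of the 3 Lhx1epiCKO arrays and on all 3 controls. It read 6.85, 7.18 and 7.30 in Lhx1epiCKO, against 8.54, 6.90 and 8.35 in control. The Lhx1epiCKO arrays and control replicate 2 lay together, and control replicates 1 and 3 lay more than 1 log2 unit above all 4 of them. The difference was -0.82 ± 0.32 (log2, SE, n = 3 per group), a 1.77-fold lower mean, with an adjusted p of 0.509. Without control replicate 2 it was -1.34 (adjusted p = 0.047), but that array was doubted because of its Lhx1 value, so this is a description and no test. The position of the probe relative to the deleted exons is not given, so the reading is a limited check of the labels.

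No probe passed the test between the genotypes. With limma over all 12 arrays, 0 of the 14377 probes (0%) had a Benjamini-Hochberg adjusted p under 0.05, and the smallest was 0.489. An unadjusted p under 0.05 was found for 1369 probes (9.52%), of which 717 (4.99%) were higher and 652 (4.54%) lower in Lhx1epiCKO. Groups did not overlap for 1328 probes (9.24%), with 677 (4.71%) higher and 651 (4.53%) lower. The fit of the 6 posterior arrays alone called 0 probes as well, with 393 at an unadjusted p under 0.05. In simulated data each probe had 1 spread, pooled over all 12 arrays and equal in every group. The fit then found 24% of probes shifted by 0.5 (log2), 94% of those shifted by 1, 96% by 1.5 and 100% by 2. The real posterior Lhx1epiCKO arrays spread more (median SD 0.224, against 0.088 and 0.102 in the anterior groups), and an array standing apart was not simulated. These shares can therefore overstate what the posterior comparison finds.

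Differences of some size were often those of 1 array. A mean difference over 0.5 (log2) was seen for 528 probes, 105 higher and 423 lower in Lhx1epiCKO, and groups did not overlap for 134 of these. Without Lhx1epiCKO replicate 3, 33 of the 105 and 31 of the 423 were still over 0.5 in the same direction. Without both that array and control replicate 2 these numbers were 31 and 26.

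With both doubted arrays left out, 4 of 14377 probes (0.0278%) passed, those of Hbb-bh1, Lhx1, Otx2 and Sfrp1. This fit compares 2 arrays with 2, and the arrays stood apart partly in these 4 genes, so these calls are a description. The fit shares its spread with the anterior arrays, and with the 6 posterior arrays alone no gene passed when either doubted array was left out. The values on all arrays are therefore given first for each gene.

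Hbb-bh1, an embryonic beta-type globin on chromosome 7, read 11.07, 10.06 and 10.12 in Lhx1epiCKO, against 8.54, 10.10 and 8.13 in control. Lhx1epiCKO replicate 1 was the highest of all, control replicates 1 and 3 were the lowest, and control replicate 2 lay among the Lhx1epiCKO arrays, so the groups overlapped through that array alone. The difference was 1.49 ± 0.40 (log2, SE), or 2.81-fold higher in Lhx1epiCKO, with an adjusted p of 0.489. It was 2.08 without control replicate 2 (adjusted p = 0.047) and 2.23 ± 0.25 without both doubted arrays (adjusted p = 0.00293). Over all alternatives it ran between 1.10 and 2.23. In the anterior parts the same probe read 9.02, 9.39 and 9.55 in Lhx1epiCKO, against 8.11, 8.01 and 8.19 in control. There the groups did not overlap, with a difference of 1.22 ± 0.40 and an adjusted p of 1. That SE is shared by all groups of the limma fit, the wider posterior ones included. It and the adjusted p therefore do not measure the anterior spread alone.

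Otx2, a homeobox gene of the anterior epiblast and head, read 7.60, 7.08 and 8.48 in Lhx1epiCKO, against 8.79, 7.94 and 8.69 in control. Lhx1epiCKO replicate 3 lay near control replicates 1 and 3, and control replicate 2 lay between Lhx1epiCKO replicates 1 and 3. The difference was -0.76 ± 0.30 (adjusted p = 0.509), and -1.40 ± 0.19 without both doubted arrays (adjusted p = 0.0124). As a check of the dissection, the same probe read 10.25, 9.94 and 10.41 in anterior Lhx1epiCKO and 11.20, 11.40 and 11.59 in anterior control, above every posterior array. The Otx2 level was thus low in the posterior parts of both genotypes.

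Sfrp1, a secreted protein that binds WNT ligands, had 2 probes that did not behave alike. The brighter read 7.20, 7.45 and 8.96 in Lhx1epiCKO, against 8.34, 7.87 and 8.60 in control, and Lhx1epiCKO replicate 3 was the highest of the 6 arrays. Its difference was -0.40 ± 0.35 (adjusted p = 0.693), and -1.15 ± 0.17 without both doubted arrays (adjusted p = 0.0332). The dimmer read 7.07, 7.01 and 6.68 in Lhx1epiCKO, against 7.27, 7.02 and 7.50 in control, where Lhx1epiCKO replicate 3 was the lowest. Its difference was -0.34 ± 0.14, and the same -0.34 without both arrays, with an adjusted p of 0.377. The array that decides the value thus pulls the probes of this gene opposite ways.

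**Figure D2:**
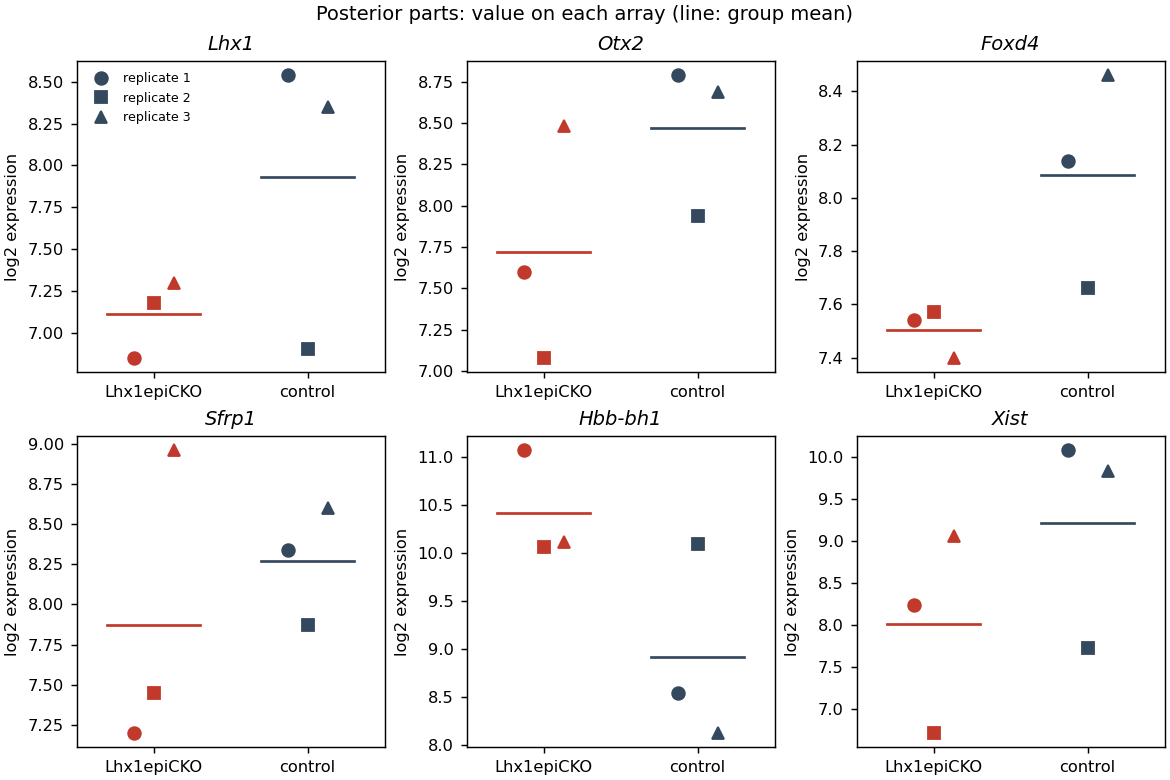
Each panel shows the log2 value of 1 probe on the 3 posterior Lhx1epiCKO arrays (left) and the 3 posterior control arrays (right), with a symbol for each replicate number, a line at the group mean and a scale of its own. Control replicate 2 lies at 6.90 for Lhx1 and 10.10 for Hbb-bh1, among the Lhx1epiCKO arrays, and Lhx1epiCKO replicate 3 is the highest of all for Sfrp1 at 8.96. The Xist panel shows the brightest of its 4 probes and the Sfrp1 panel the brighter of 2.

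The primitive erythroid genes were the list with the highest median difference. Of 21 genes, 11 were kept by the detection filter, and 10 of these had a positive difference and 1 a negative one. None was called. The median difference was 0.29, against 0.01 over 9834 genes with 1 probe each, for which 51.6% of differences were positive. Groups did not overlap for 3 of the 11, all higher in Lhx1epiCKO, against 4.49% of all genes (9.1% in either direction). The median ran between 0.21 and 0.42 over the alternatives, and it was 0.42 without both doubted arrays, when all 11 differences were positive. Control replicate 2 was doubted partly for its Hbb-bh1 value, and Hbb-bh1 is in this list. The values without that array are therefore a description and no test. The summed level of the 11 genes, on the log2 scale, was 12.68, 12.3 and 12.15 in Lhx1epiCKO, against 11.82, 12.31 and 11.67 in control, so control replicate 2 again lay among the Lhx1epiCKO arrays. The same genes had a median difference of 0.25 in the anterior parts, and the list's difference between regions was not tested.

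Blvrb, a biliverdin reductase abundant in red cells, read 9.72, 9.84 and 9.87 in Lhx1epiCKO, against 9.33, 9.55 and 8.94 in control. All 3 Lhx1epiCKO arrays lay above the controls, with a difference of 0.54 ± 0.15 and an adjusted p of 0.489. Its other probe read 7.20, 7.61 and 7.53 in Lhx1epiCKO, against 7.59, 7.56 and 7.36 in control, and overlapped, with a difference of -0.06 ± 0.12, so the probes of Blvrb disagreed. Gfi1b, a repressor needed in the red cell and platelet lineages, read 7.52, 7.39 and 7.30 in Lhx1epiCKO, against 6.93, 7.12 and 7.14 in control. These groups did not overlap either, with a difference of 0.34 ± 0.11 (adjusted p = 0.509). Its other probe read 7.60, 7.17 and 7.41 in Lhx1epiCKO, against 7.11, 6.89 and 6.83 in control, again without overlap, with a difference of 0.45 ± 0.13. Nfe2, a transcription factor of red cells and megakaryocytes, read 7.59, 7.39 and 7.36 in Lhx1epiCKO, against 7.01, 7.33 and 7.14 in control, and its difference was 0.29 ± 0.13 (adjusted p = 0.521). Its groups did not overlap, with control replicate 2 just below the lowest Lhx1epiCKO array.

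Klf1, the erythroid Kruppel-like factor, read 7.61, 7.12 and 7.38 in Lhx1epiCKO, against 6.73, 7.32 and 6.90 in control. Control replicate 2 lay above Lhx1epiCKO replicate 2, so the groups overlapped, with a difference of 0.39 ± 0.15 (adjusted p = 0.51). Alas2, the erythroid enzyme that starts haem synthesis, read 7.42, 7.21 and 7.28 in Lhx1epiCKO, against 6.76, 7.23 and 7.01 in control, and overlapped in the same way, with a difference of 0.30 ± 0.13 (adjusted p = 0.517). Among factors shared with endothelium and early blood progenitors, Tal1 had a difference of 0.12 ± 0.12, Lmo2 of 0.07 ± 0.20 and Runx1 of -0.17 ± 0.16. Without both doubted arrays these were 0.32 for Tal1, 0.40 for Lmo2 and 0.04 for Runx1, beside 0.43 for Alas2 and 0.42 for Nfe2.

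Other defining genes of this lineage were near background. The embryonic beta-type globin Hbb-y read between 6.56 and 7.25 in Lhx1epiCKO and between 6.51 and 7.22 in control, and was detected on 1 array of each group. Hba-x, the embryonic alpha-type globin, was detected on 2 Lhx1epiCKO arrays and 0 control arrays, and Gata1 on 0 Lhx1epiCKO arrays and 1 control array. For Hba-a1 and Hbb-b1 no probe carried the name. Genes of the endothelium, which arises beside blood, had a median of -0.10 over 14 kept genes, with groups not overlapping for 2, both lower, against 4.61% of all genes. One was Rasip1, needed for vessel lumens, at 7.20, 7.42 and 7.18 in Lhx1epiCKO, against 7.73, 7.67 and 7.53 in control, a difference of -0.38 ± 0.11. The other was Pecam1, a junction protein, with a difference of -0.17 ± 0.11.

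**Figure D3:**
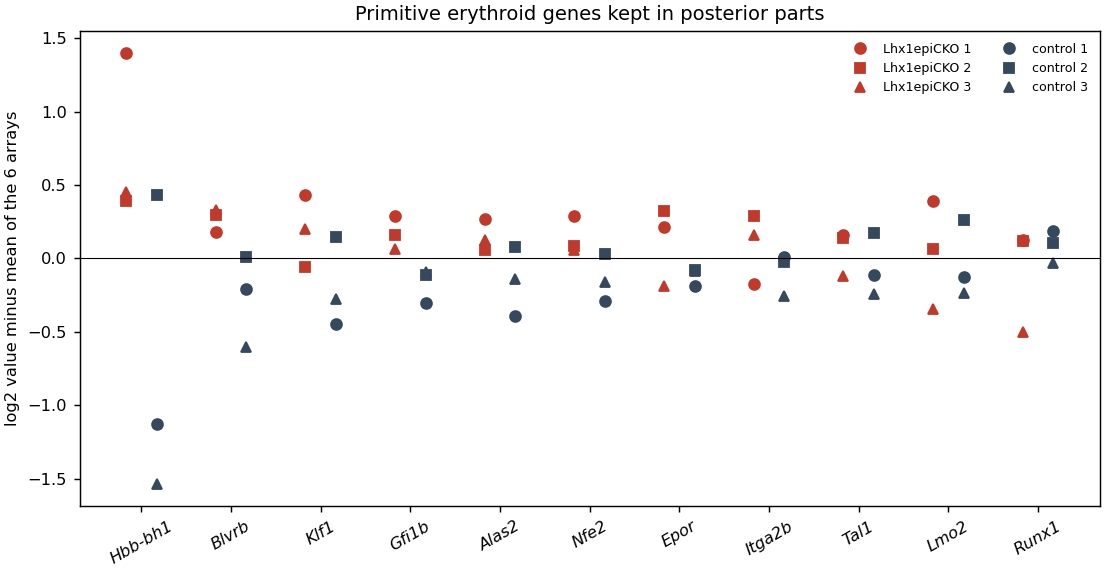
Each primitive erythroid gene kept is shown by its log2 value on each posterior array minus its mean over the 6 arrays, with Lhx1epiCKO arrays left and control arrays right of each gene and a symbol for each replicate number. Control replicates 1 and 3 lie below the mean for Hbb-bh1, Blvrb, Klf1, Gfi1b, Alas2 and Nfe2, and control replicate 2 lies at or above it for Hbb-bh1, Blvrb, Klf1, Alas2, Nfe2, Runx1, Tal1 and Lmo2.

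Genes of the primitive streak and nascent mesoderm, the tissue in which the posterior epiblast turns into mesoderm, showed no common shift. Of 26 genes 23 were kept, 11 with a positive and 12 with a negative difference, a median of -0.02, and groups that overlapped for all 23. Brachyury (T), the T-box factor of the streak, read 12.80, 12.92 and 10.98 in Lhx1epiCKO, against 12.45, 12.90 and 12.66 in control, and Mesp1, of the earliest mesoderm, read 10.91, 10.76 and 8.74, against 10.91, 10.97 and 10.98. In both the low mean of Lhx1epiCKO came from replicate 3. Without both doubted arrays the differences were 0.31 for T and -0.11 for Mesp1. Cyp26a1, which breaks down retinoic acid, read 7.86, 8.28 and 8.49 in Lhx1epiCKO, against 9.35, 8.81 and 8.34 in control, with a difference of -0.62 ± 0.23 (adjusted p = 0.509) and overlap through control replicate 3 alone.

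In the presomitic and somite list, 12 of 18 genes were kept, with a median of 0.03 and groups not overlapping for 3, all lower in Lhx1epiCKO, against 4.61% of all genes. Foxc2, a forkhead factor of paraxial mesoderm, read 7.43, 7.24 and 7.34 in Lhx1epiCKO, against 7.63, 7.71 and 7.85 in control. Its difference was -0.39 ± 0.11, and it was -0.41 without both doubted arrays. Meox1, a homeobox factor of somites, read 8.32, 8.33 and 8.53 in Lhx1epiCKO, against 8.67, 9.44 and 8.69 in control, where control replicate 2 was the highest. Dll3, a Notch ligand family member of the presomitic mesoderm, differed by -0.20 ± 0.10. For the node and notochord the median was -0.08 over 12 kept genes, and groups overlapped for every one.

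In the anterior mesendoderm and prechordal plate list, which includes Lhx1 and Otx2, 12 of 15 genes were kept, 8 of them with a negative difference, and the median was -0.08. Gsc, a homeobox gene of the organizer, read 6.84, 6.91 and 6.69 in Lhx1epiCKO, against 7.83, 6.91 and 6.96 in control. The highest Lhx1epiCKO array and control replicate 2 differed only past the second decimal, so the groups count as not overlapping by almost nothing, control replicate 1 alone stood clear, and the difference was -0.42 ± 0.22. Cer1, a secreted inhibitor of NODAL, BMP and WNT, read 6.95, 6.98 and 7.90 in Lhx1epiCKO, against 7.13, 6.91 and 7.40 in control. Its difference of 0.13 ± 0.21 turned to -0.30 without both doubted arrays. Without them the median of the list was -0.26, and 1 of the 12 differences was positive, but over the alternatives the median ran between -0.26 and 0.01.

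Hox genes, which set position along the body axis, had 22 of 39 members kept, 6 with a positive and 16 with a negative difference and a median of -0.14. Control replicate 2 moved with this shift. It held the highest value of the 6 arrays for 13 of the 22 genes (59.1%), against 14.5% of all genes, and without it the median was -0.01. Hoxd8 read 7.69, 7.87 and 7.48 in Lhx1epiCKO, against 7.46, 8.24 and 7.31 in control. Hoxb4 was the 1 member without overlap, near the share of all genes (4.61% lower), at 7.58, 7.80 and 7.70 in Lhx1epiCKO, against 7.94, 8.19 and 7.98 in control, a difference of -0.34 ± 0.11.

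With all arrays, the medians of the signalling lists lay between -0.06 and 0.12, against 0.01 over all genes. Over 19 kept targets of canonical WNT signalling the median was 0.02, and the anterior comparison gave 0.37 for the same genes. Of these 19 Myc alone did not overlap, near the share of all genes (4.49% higher). It read 7.54, 7.68 and 7.35 in Lhx1epiCKO, against 7.19, 7.13 and 7.32 in control. NODAL pathway genes had a median of 0.00 over 18. It was -0.13 without Lhx1epiCKO replicate 3, and also -0.13 without both doubted arrays, when 6 of the 18 differences were positive. With all arrays 4 did not overlap, all lower, against 4.61% of all genes: Gsc by the narrow gap given above, the signal transducer Smad3 (-0.31 ± 0.13), the NODAL co-receptor family gene Cfc1 (-0.24 ± 0.11) and the ligand Gdf3 (-0.13 ± 0.10). BMP pathway genes had a median of 0.12 over 16, with 12 positive differences. Without both doubted arrays the median was -0.00, with 8 positive differences. Bmpr1a, a BMP type I receptor, read 8.89, 8.77 and 9.17 in Lhx1epiCKO, against 8.62, 8.62 and 8.63 in control. It was the only 1 of the 16 without overlap, against 4.49% of all genes in that direction, and the difference was 0.32 ± 0.12.

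The FGF list had a median of 0.01 over 18 genes, the SHH list of -0.06 over 11 and the retinoic acid list of -0.06 over 11. Rdh10, which makes retinal on the way to retinoic acid, read 7.02, 7.25 and 7.41 in Lhx1epiCKO, against 6.60, 6.98 and 6.72 in control. It was higher on all 3 Lhx1epiCKO arrays, by 0.46 ± 0.13, and by 0.47 without both doubted arrays. Rdh10 was the only 1 of the 11 without overlap, against 4.49% of all genes in that direction. WNT antagonists had a median of 0.09 over 11 genes, which was -0.11 without Lhx1epiCKO replicate 3. Among the partners of LHX1 in the LIM-domain complex, no member other than Lhx1 had a difference beyond 0.40 in size, and groups overlapped for all 11 kept. Ldb1, the cofactor that bridges LIM-domain factors, read 12.39, 12.04 and 12.47 in Lhx1epiCKO, against 11.84, 12.28 and 12.20 in control, with a difference of 0.19 ± 0.14.

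**Figure D4:**
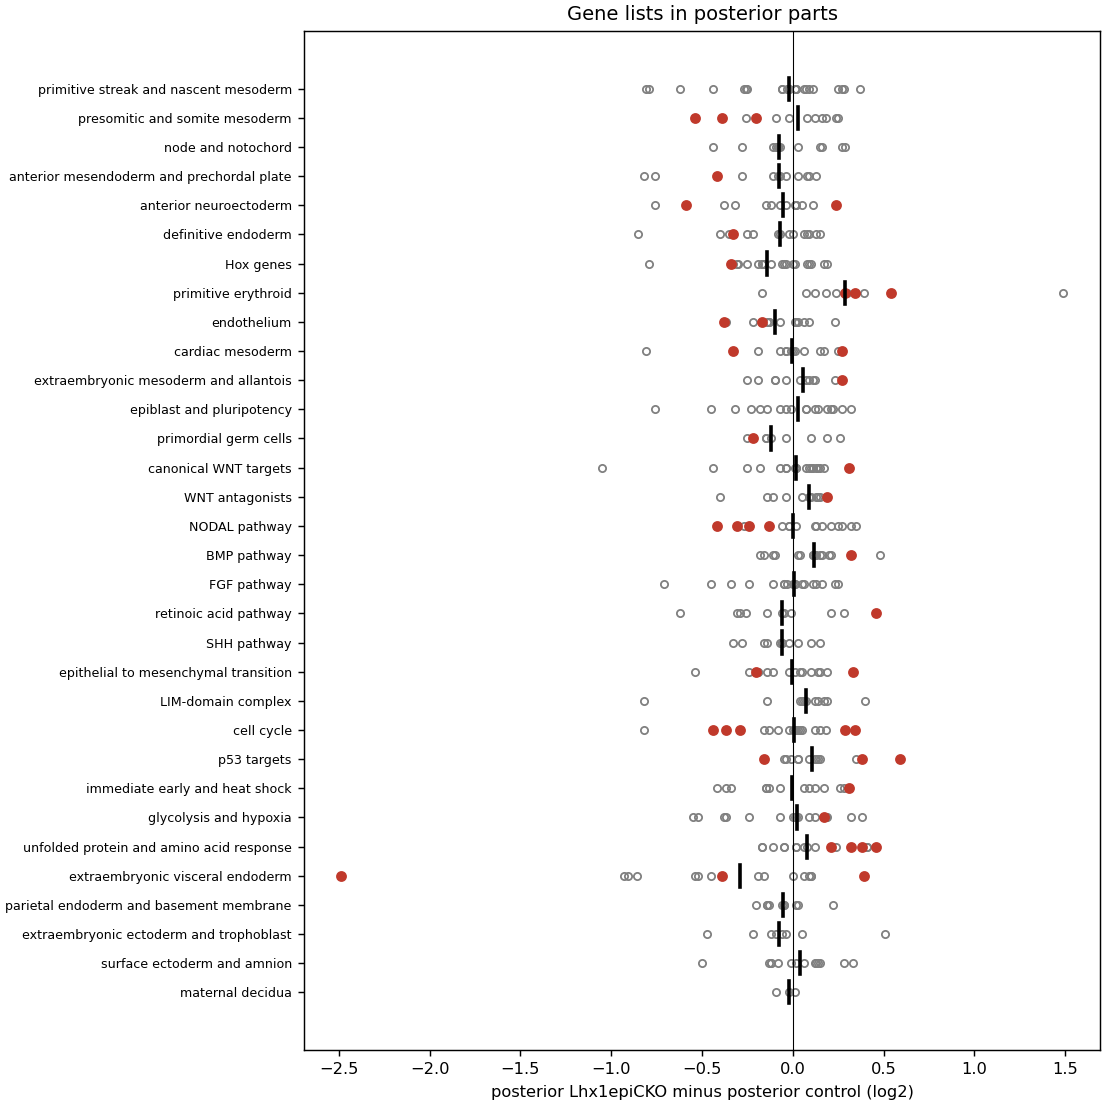
Each row is a gene list and each point the posterior difference of 1 kept gene (Lhx1epiCKO minus control, log2), filled where the groups did not overlap, with a bar at the median. The primitive erythroid bar lies highest at 0.29, the bar of extraembryonic visceral endoderm lies lowest at -0.29, and the point at -2.49 is Apoa1.

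Markers of tissue that a posterior dissection could carry along were read beside these lists. The extraembryonic visceral endoderm had 16 of 18 genes kept, 6 with a positive and 10 with a negative difference and a median of -0.29. That median was -0.14 without Lhx1epiCKO replicate 3, -0.37 without control replicate 2 and -0.24 without both, when 3 of the 16 differences were positive. Its summed level was 16.19, 16.11 and 15.3 in Lhx1epiCKO, against 16.34, 16.19 and 16.19 in control, so the lowest sum was that of Lhx1epiCKO replicate 3. On that array Apoa1, an apolipoprotein of this tissue, read 7.20, while it read 13.60 and 13.70 on the other Lhx1epiCKO arrays, against 14.00, 14.08 and 13.89 in control. Ttr, which carries thyroid hormone, read 13.53, 13.66 and 10.67 in Lhx1epiCKO, against 13.48, 13.51 and 13.44 in control. Amn, an endocytic receptor subunit of the same tissue, went the other way, at 13.56, 13.43 and 13.75 in Lhx1epiCKO, against 13.38, 13.02 and 13.18 in control. Apoa2 read 10.61, 8.89 and 10.46 in Lhx1epiCKO, against 11.22, 10.38 and 11.14 in control, with number 2 lowest in both groups. Parietal endoderm genes had a median of -0.05 over 10, trophoblast genes of -0.08 over 8 and surface ectoderm genes of 0.04 over 14. Of 12 maternal decidua genes 3 were kept, and Prl8a2 and Prl3c1, which mark decidua, were detected on 0 posterior arrays. The part of adhering visceral endoderm in the results above was not tested.

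The genes of smallest p whose groups did not overlap differed by less than 1 log2 unit. Tmem33, a membrane protein of the endoplasmic reticulum, read 11.64, 11.57 and 11.95 in Lhx1epiCKO, against 10.93, 11.20 and 11.02 in control, with a difference of 0.67 ± 0.12. Its other probe read 11.35, 11.54 and 12.28 in Lhx1epiCKO, against 11.09, 11.61 and 11.11 in control, and overlapped through control replicate 2. Cdkn1a, the p21 inhibitor of the cell cycle, read 7.95, 7.90 and 7.77 in Lhx1epiCKO, against 7.18, 7.41 and 7.45 in control. Its brighter probe read 7.92, 8.42 and 8.27 in Lhx1epiCKO, against 8.21, 8.12 and 7.89 in control, so the probes of Cdkn1a disagreed. The same held for Poldip2, Nln, Usp48, Rida, Blm and Vti1a, each of which had a probe 0.44 to 0.64 higher and at least 1 other kept probe whose difference lay between -0.73 and 0.18. On the higher probe, Nln and Blm were not above background in any control, so they were kept through the Lhx1epiCKO arrays alone. The group means bound the changes at 1.33-fold and 1.13-fold or more higher, without a sampling error. Nle1, with a single probe, read 7.65, 7.45 and 7.59 in Lhx1epiCKO, against 6.94, 7.21 and 7.05 in control.

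Among the lower genes of this kind, Igsf8, an immunoglobulin superfamily membrane protein, read 6.58, 6.56 and 6.52 in Lhx1epiCKO, against 7.10, 6.98 and 7.15 in control. It was not above background on any Lhx1epiCKO array, so it was kept through the controls alone. The group means bound the change at 1.16-fold or more lower, without a sampling error. 4933427D14Rik read 6.74, 6.62 and 6.82 in Lhx1epiCKO, against 7.52, 7.30 and 7.77 in control. It was also kept through the controls alone, its bound of the same kind was 1.60-fold lower, and its anterior difference was -0.65. Aspdh and Slc25a13, a mitochondrial aspartate and glutamate carrier, were kept in the same way and had bounds of 1.30-fold and 1.24-fold lower. Vgll4, a cofactor of TEAD factors, read 7.87, 7.63 and 7.83 in Lhx1epiCKO, against 8.25, 8.37 and 8.53 in control. Rad18, an E3 ubiquitin ligase of DNA damage tolerance, read 7.28, 7.43 and 7.38 in Lhx1epiCKO, against 7.77, 7.85 and 7.84 in control. Both are tight within groups and each had a single probe. Gga1, Hnrnpd, Zc3h14 and Zc3h13 each had 1 probe lower without overlap, with differences between -0.84 and -0.49, and other kept probes with differences between -0.13 and 0.26. For Zc3h14 another probe separated the groups the opposite way, at 9.18, 9.21 and 9.47 in Lhx1epiCKO, against 9.02, 9.02 and 9.03 in control. Every probe picked here for its small p had an adjusted p of 0.489. The other probes of these genes were not picked in this way, and the opposite Zc3h14 probe had an adjusted p of 0.521.

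The genes called in the anterior parts were then read in the posterior parts. With probes detected on 3 of all 12 arrays, the anterior comparison called 12 of 17041 probes (0.0704%), and 11 of these 12 passed the posterior filter. None was called there. Foxd4, which encodes a forkhead transcription factor of early neural tissue, came nearest. It read 7.54, 7.57 and 7.40 in posterior Lhx1epiCKO, against 8.14, 7.66 and 8.46 in posterior control. The groups did not overlap, control replicate 2 was the control nearest to Lhx1epiCKO, and the difference was -0.59 ± 0.19 (adjusted p = 0.509), against -1.61 in the anterior parts. Shh, the signal of the node and notochord, differed by -0.28 ± 0.18 in posterior parts and by -1.27 in anterior parts. Posterior Shh was near background, at 7.12, 6.72 and 6.74 in Lhx1epiCKO (detected on 1 array), against 7.11, 7.06 and 7.25 in control. Background limits how far Shh can fall there, so its differences in the regions cannot be compared in size. The WNT receptor gene Fzd10 differed by 0.13 ± 0.18 in posterior and 1.20 in anterior parts, and the hindbrain homeobox gene Gbx2 by 0.02 ± 0.18 and 1.24. Gbx2 was bright in the posterior parts of both genotypes, between 12.99 and 13.13 in Lhx1epiCKO and between 12.88 and 13.15 in control. Srd5a2 was not kept. The count of anterior calls depends on the posterior arrays, since the fit shares its spread with them. With the posterior filter it was 11 in the main fit, 41 without posterior Lhx1epiCKO replicate 3, 50 without both doubted arrays and 357 with array weights.

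The difference between the regions was tested as an interaction, and 0 of 14377 probes (0%) passed with limma, with 460 (3.2%) at an unadjusted p under 0.05. Fzd5, a WNT receptor, and Shisa2, of a family that retains WNT and FGF receptors inside the cell, came closest, both with an adjusted p of 0.0507. Fzd5 read 8.33, 8.33 and 8.46 in posterior Lhx1epiCKO, against 8.41, 8.20 and 8.18 in posterior control, and its posterior minus anterior genotype difference was 1.47 ± 0.20. Shisa2 read 7.58, 7.51 and 7.90 in posterior Lhx1epiCKO, against 7.39, 7.72 and 7.58 in posterior control, with a posterior minus anterior difference of 1.58 ± 0.22. For Foxd4 that difference was 1.03 ± 0.27, for Gbx2 -1.22 ± 0.26 and for Hbb-bh1 0.27 ± 0.56, with adjusted p of 0.985, 0.752 and 0.99.

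**Figure D5:**
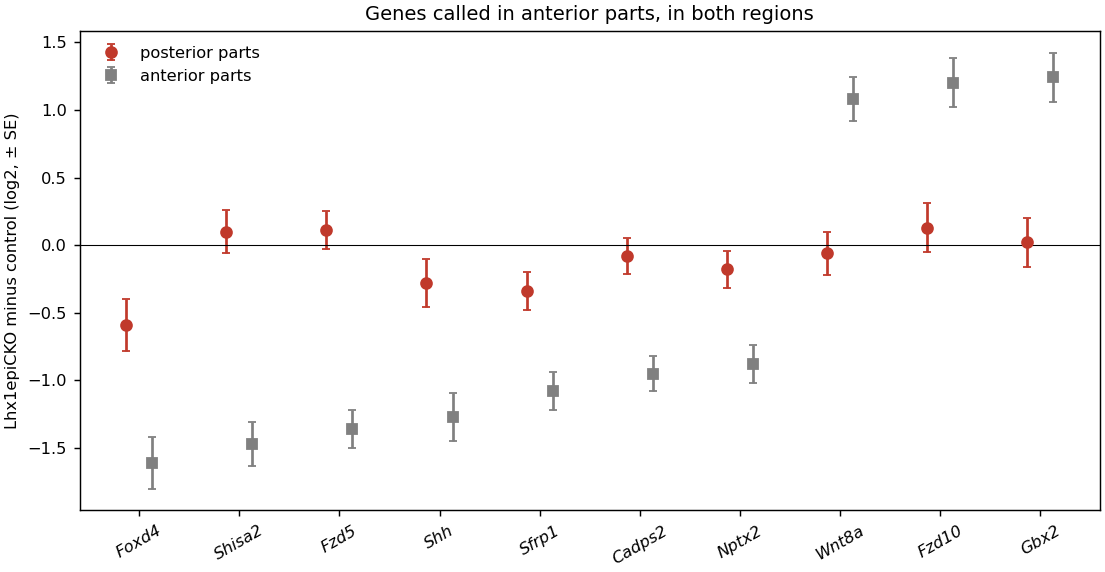
Lhx1epiCKO minus control (log2, with the SE as bars) is shown for 10 genes that the anterior comparison called, in posterior parts (left, circles) and anterior parts (right, squares). Posterior differences lie between -0.59 and 0.13, and the anterior ones between -1.61 and 1.24. The SE of a gene comes from all groups of the fit and is the same in both regions.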

How the data were processed

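RNA was measured on Illumina bead arrays. The deposited table holds normalized log2 values and detection p-values per probe and array, made by the authors. GenomeStudio and limma are named in the submitters' processing notes, and background correction and normalization are not given in the sources used here. Array medians lay between 6.81 and 6.83, and the arrays' number limits the precision. Columns were matched through sample titles. Of 30344 probes, 28034 had 1 platform symbol, 0 several and 2310 none, and 324 with conflicting names were tested but never named.

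Kept probes had a detection p under 0.05 on 3 or more of the 6 posterior arrays. All 12 arrays were fitted with limma 3.58.1 in R 4.3.3, with 1 mean per group, on the deposited log2 values, two-sided, with Benjamini-Hochberg adjustment over all kept probes (threshold 0.05). Adjusted p-values come from this limma fit except where a setting is given. A gene of a list is represented by its brightest probe over the posterior arrays, and lists are described by counts and medians. For a probe not above background in a whole group, the fold is bounded by the lowest signal of detected probes. Such a bound compares group means and carries no sampling error. The fit was tested on simulated data. Alternatives changed the filter, scaling, array weights, prior and replicate block, or left out arrays.

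The members and gene lists were chosen with earlier results of these data known. Named genes were Lhx1, the 10 non-overlapping genes of smallest p in each direction, genes called in anterior parts or without the doubted arrays, and the 5 most deviating probes of each doubted array. Some genes that this rule picks are not reported here. List genes given by value were chosen after their values were seen.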

Additional observations from a re-analysis of the deposited data

How the results depend on the processing

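The posterior comparison called 0 probes under every alternative filter, scaling, prior and weighting tried. Leaving out 1 array at a time gave 0 to 2 calls, with 2 without posterior Lhx1epiCKO replicate 1 (Flot2 and Zc3h14, both lower) and 2 without posterior control replicate 2 (Hbb-bh1 and Lhx1). Without both doubted arrays 4 probes passed. The Lhx1 difference ran between -1.34 and -0.52 with 1 array left out, and was -1.43 without both. For the difference between the regions, the main count of 0 became 1 with array weights, 2 with a detection p under 0.01, 2 with a trended and robust prior and 1 without both, and 0 to 5 with 1 array left out, the 5 being without posterior Lhx1epiCKO replicate 3 and 1 without anterior control replicate 3. The cause was not tested. With 1 array left out, Gbx2 ran between -0.05 and 0.09, Shisa2 between -0.02 and 0.18 and Wnt8a between -0.17 and 0.05. Gbx2 turned to -0.03 without posterior Lhx1epiCKO replicate 1 and -0.05 without posterior control replicate 3, Shisa2 to -0.02 without posterior Lhx1epiCKO replicate 3 in either fit, and Wnt8a to 0.05 without posterior Lhx1epiCKO replicate 1, all values near 0. The 3 fits of the 6 posterior arrays alone with weights or an array left out were added after the data were seen. Replicate numbers were not used to pair the samples in the main fit. Posterior deviations of the same number correlated at 0.032, 0.011 and 0.005 between the genotypes, low values that cannot show the samples to be unpaired. Between posterior and anterior parts these values were 0.072, 0.256 and 0.082 in Lhx1epiCKO, each the highest for its posterior array, a hint from the data and not the design, and -0.001, -0.05 and 0.027 in control. With the replicate block the posterior comparison called 0 probes, with 1417 at an unadjusted p under 0.05 against 1369 without it, the Lhx1 difference was -0.82, and the regions' difference gave 0. Changes of 0.5 on the log2 scale were mostly not recovered with 3 arrays per group, even in simulated data with a spread equal in every group.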

Other observations

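Genes of the unfolded protein and amino acid response had 17 of 18 members kept, with a median of 0.08 and groups not overlapping for 4, all higher in Lhx1epiCKO, against 4.49% of all genes in that direction. Sdf2l1, which acts in the endoplasmic reticulum, read 9.76, 10.20 and 10.49 in Lhx1epiCKO, against 9.64, 9.73 and 9.70 in control, a difference of 0.46 ± 0.17 (log2, SE). Creld2 differed by 0.32 ± 0.12, Pdia4, a disulfide isomerase, by 0.21 ± 0.12 and Sesn2, a stress-induced gene also listed among p53 targets, by 0.38 ± 0.13. In the p53 target list the median was 0.11 over 14 genes, with 2 higher and 1 lower without overlap, against 4.49% and 4.61% of all genes. Trp53inp1 disagreed between its probes. Its brighter probe read 8.62, 8.51 and 8.96 in Lhx1epiCKO, against 7.82, 8.39 and 8.11 in control, while its other probe read 6.88, 6.93 and 6.84 in Lhx1epiCKO, against 7.32, 7.27 and 7.21 in control, so both separated the groups in opposite directions.

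Over 20 kept cell cycle genes the median was 0.01, with 2 higher and 3 lower in Lhx1epiCKO without overlap, against 4.49% and 4.61% of all genes. Without both doubted arrays the median was -0.1, and 5 of the 20 differences were positive. The mitotic kinase gene Plk1 read 12.31, 12.18 and 12.40 in Lhx1epiCKO, against 11.94, 11.83 and 12.12 in control, and the centromere histone gene Cenpa differed by 0.29 ± 0.11. Lower were Mcm5, of the replication helicase, at 13.11, 13.06 and 12.52 in Lhx1epiCKO, against 13.32, 13.34 and 13.36 in control, Ccna2 by -0.37 ± 0.12 and Top2a by -0.29 ± 0.12. None of these passed the test over all probes.

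Lhx1epiCKO replicate 3 held the highest value of the 6 posterior arrays for 34.2% of all genes and the lowest for 26.2%. It was the highest for 9 of 18 epiblast and pluripotency genes (50%). Some lists had larger shares, such as the LIM-domain complex (63.6%), the BMP pathway (56.2%) and the NODAL pathway (55.6%). Others had smaller shares, such as the Hox genes and the primitive erythroid genes (9.09% each) and the SHH pathway (18.2%). The high probes of this replicate included Lefty2, a NODAL inhibitor, at 10.24.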
